A study of Homo sapiens with 12 samples.

Results

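A list of 226 YTHDF1 peaks had been called in H1 cells carrying a knockdown of YTHDF1, and each of these peaks was set against maps of Polycomb repressive complex 1 (PRC1) from untreated H1 cells. A peak is an interval in which DNA recovered with the antibody exceeds the background. All 226 peaks were taken, of 72867 peaks and islands in the 3 lists used, and each was placed in a class by whether it shared at least 1 bp with a peak of RNF2 and with an island of H2AK119ub. The RNF2 list held 29310 peaks and the H2AK119ub list 43331 islands, an island being a broad enriched interval built from 200 bp steps.

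H1 is an established human embryonic stem cell line, and all cells had been grown in mTeSR1, a defined medium for such cells. The groups used were YTHDF1 chromatin immunoprecipitation (ChIP-seq) from H1 cells treated with an shRNA against YTHDF1, and RNF2 and H2AK119ub ChIP-seq from untreated H1 cells. Each had 2 biological replicates, which the authors merged into 1 list, so no value below has a replicate error and no test over samples was possible. RNF2 and H2AK119ub in knockdown cells, the level of YTHDF1 left after the shRNA, and the depth of each library were not measured in these lists, and the YTHDF1 list of untreated cells was not used here. The classes therefore say where the knockdown peaks lie on the PRC1 map of untreated cells and nothing about a change.

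YTHDF1 binds messenger RNA that carries N6-methyladenosine (m6A), the commonest internal modification of such RNA, and is best known from the cytoplasm. RNF2, also called RING1B, is the catalytic subunit of PRC1 and attaches a single ubiquitin to a lysine of histone H2A (H2AK119ub), a mark found broadly over genes that are held silent or poised in embryonic stem cells. RFX factors bind the X-box, an inverted repeat with the arms GTTGCC and GGCAAC, in promoters of many genes for cilia. Serum response factor binds the CArG box in promoters of immediate early genes such as EGR1 and FOS.

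Sequence was read from RefSeq promoter windows of GRCh38.p14, each 300 bp long with 250 bases before and 50 after a gene's start, at the 71 knockdown peaks that touched one. The windows below are shown because 44 of these 71 peaks had an X-box arm in a touched window, 37 with both features, 3 with H2AK119ub alone, 2 with RNF2 alone and 2 with neither. They are 40 bases each, 5′ to 3′ on the strand named, on the hg38 build, and capitals mark GTTGCC or its reverse complement GGCAAC. For both features only a part of the 37 is shown, picked after the values had been seen. This part includes genes linked to cilia whose peaks had a lower −log10 p than some peaks left out. The first set lay under peaks that touched both RNF2 and H2AK119ub, at promoters of a subunit of the AP-1 transcription factor (JUND), a vesicle protein (SYT5), a PRC1 subunit (PHC2), RFX1 itself and genes linked to cilia or axonemes (CCDC13, TTC23L, RSPH14, MLF1, DYNC2H1), with DMWD, ZNF497, FAM131A and C2orf81 beside them.
JUND (chr19:18281749-18281788, plus strand): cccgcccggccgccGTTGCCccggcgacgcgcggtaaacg
DMWD (chr19:45792840-45792879, minus strand): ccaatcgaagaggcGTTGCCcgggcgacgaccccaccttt
ZNF497 (chr19:58362908-58362947, plus strand): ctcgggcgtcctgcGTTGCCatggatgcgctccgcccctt
FAM131A (chr3:184338777-184338816, plus strand): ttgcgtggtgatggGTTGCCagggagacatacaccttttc
SYT5 (chr19:55179450-55179489, plus strand): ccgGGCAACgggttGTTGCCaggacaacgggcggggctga
CCDC13 (chr3:42773234-42773273, minus strand): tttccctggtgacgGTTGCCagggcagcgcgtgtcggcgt
TTC23L (chr5:34839135-34839174, minus strand): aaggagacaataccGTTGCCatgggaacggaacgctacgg
RFX1 (chr19:14006294-14006333, minus strand): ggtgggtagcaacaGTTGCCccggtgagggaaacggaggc
C2orf81 (chr2:74421656-74421695, plus strand): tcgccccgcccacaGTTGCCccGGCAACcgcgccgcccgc
RSPH14 (chr22:23141991-23142030, plus strand): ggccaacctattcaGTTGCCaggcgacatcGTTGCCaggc
MLF1 (chr3:158571056-158571095, plus strand): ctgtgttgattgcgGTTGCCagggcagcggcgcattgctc
DYNC2H1 (chr11:103109421-103109460, minus strand): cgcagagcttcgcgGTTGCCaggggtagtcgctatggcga
PHC2 (chr1:33431214-33431253, minus strand): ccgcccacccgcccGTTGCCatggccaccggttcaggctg

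The next set lay under peaks that touched H2AK119ub without RNF2, at CFAP144, a cilia and flagella associated gene, at LRRC74B, and at APBB1, which codes for an adaptor of the amyloid precursor protein.
CFAP144 (chr1:43147859-43147898, plus strand): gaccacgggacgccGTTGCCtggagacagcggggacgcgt
LRRC74B (chr22:21045766-21045805, minus strand): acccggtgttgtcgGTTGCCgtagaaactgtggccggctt
APBB1 (chr11:6405534-6405573, minus strand): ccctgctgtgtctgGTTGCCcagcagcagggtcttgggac

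The following pair lay under peaks that touched RNF2 without H2AK119ub, at DNAI7, an axonemal dynein intermediate chain gene, and at ZSWIM2.
DNAI7 (chr12:25195133-25195172, plus strand): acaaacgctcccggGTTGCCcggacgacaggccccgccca
ZSWIM2 (chr2:186849197-186849236, plus strand): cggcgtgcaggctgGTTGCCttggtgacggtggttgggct

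The last pair lay under peaks that touched neither feature, at SPAG16, a component of the central pair of motile cilia, and at the histone variant gene H2AL3.
SPAG16 (chr2:213284266-213284305, plus strand): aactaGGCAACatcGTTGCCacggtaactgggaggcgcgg
H2AL3 (chrX:37994058-37994097, minus strand): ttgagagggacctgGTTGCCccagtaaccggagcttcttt

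Whole windows are shown for 4 promoters on which the descriptions below rest. EGR1, an immediate early transcription factor, carried the peak with the highest fold and has its CArG boxes in capitals. The summit of this peak lay outside the window shown, so no distance from it to these boxes was counted. EEF1A1, which codes for a translation elongation factor, carried the peak with the highest −log10 p and has no GTTGCC on either strand in its window. CFAP144 and SPAG16 hold 3 copies of the arm each and carried peaks without RNF2.
EGR1 (chr5:138465229-138465528, plus strand): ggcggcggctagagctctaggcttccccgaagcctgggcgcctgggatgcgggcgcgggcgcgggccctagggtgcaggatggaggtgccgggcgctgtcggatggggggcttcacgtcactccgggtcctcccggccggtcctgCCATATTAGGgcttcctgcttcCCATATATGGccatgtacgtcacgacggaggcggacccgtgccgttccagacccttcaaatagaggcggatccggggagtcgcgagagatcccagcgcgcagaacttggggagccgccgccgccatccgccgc
EEF1A1 (chr6:73520983-73521282, minus strand): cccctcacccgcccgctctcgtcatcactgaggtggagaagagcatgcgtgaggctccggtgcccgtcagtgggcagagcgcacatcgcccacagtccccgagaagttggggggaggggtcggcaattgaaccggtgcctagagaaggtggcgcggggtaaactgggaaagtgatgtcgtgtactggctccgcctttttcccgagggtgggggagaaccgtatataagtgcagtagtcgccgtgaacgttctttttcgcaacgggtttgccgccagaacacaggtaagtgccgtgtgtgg
CFAP144 (chr1:43147654-43147953, plus strand): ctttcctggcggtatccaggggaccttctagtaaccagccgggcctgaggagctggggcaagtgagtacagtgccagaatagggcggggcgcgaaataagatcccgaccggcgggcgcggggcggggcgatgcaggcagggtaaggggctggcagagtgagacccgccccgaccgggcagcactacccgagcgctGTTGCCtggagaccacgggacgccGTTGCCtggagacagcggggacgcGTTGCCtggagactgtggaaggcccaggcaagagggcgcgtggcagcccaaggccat
SPAG16 (chr2:213284214-213284513, plus strand): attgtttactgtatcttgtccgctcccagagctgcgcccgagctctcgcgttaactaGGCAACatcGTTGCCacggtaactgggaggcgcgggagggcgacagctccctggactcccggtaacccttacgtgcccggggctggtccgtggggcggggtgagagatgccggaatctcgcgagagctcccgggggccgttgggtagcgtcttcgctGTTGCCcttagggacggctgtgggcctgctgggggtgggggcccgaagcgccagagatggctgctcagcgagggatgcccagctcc

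Of the 226 knockdown peaks, 108 touched both RNF2 and H2AK119ub, which was 47.8% (41.1 to 54.5, exact Clopper-Pearson 95% interval, counting error only, here and below). The class with neither feature was nearly as large, with 93 peaks or 41.2% (34.7 to 47.9). H2AK119ub alone was touched by 19 peaks, 8.41% (5.14 to 12.8), and RNF2 alone by 6 peaks, 2.65% (0.980 to 5.69). The RNF2 peaks together covered 66.5 Mb, 2.15% of the chromosomes' extent, and the islands 310.2 Mb or 10.05%. The knockdown peaks covered 115.0 kb. Single-feature peaks were the minority, and most knockdown peaks had both features or none. The order of the 2 large classes was not settled, as their intervals overlapped, and it changed without chromosome 19. Of the 194 peaks then left, 41.2% had both features (34.2 to 48.5) and 46.9% neither (39.7 to 54.2). Chromosome 19 held 28 peaks with both features and 2 with neither, so leaving it out could only shift the shares this way. The order also depended on how many PRC1 intervals were kept: with the better 50% of RNF2 peaks and of islands 33.6% had both and 50% neither. Fewer intervals can only lower the first share and raise the second, so the direction of this shift was fixed in advance.

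The 1 bp rule left few peaks at its edge. Just outside it lay a peak near SLC6A5, 46 bp from an RNF2 peak, and a peak in the noncoding gene MAILR, 257 bp from an island. Among the peaks with RNF2 alone, the one in SDCBP2 lay 118 bp from an island, and the other 5 lay 6384 bp or farther. Peaks with neither feature lay a median of 98.6 kb from the nearest RNF2 peak and 92.7 kb from the nearest island. Of the 93, 6 had an RNF2 peak within 10 kb and 46 had none within 100 kb, and for islands the counts were 13 and 45. Peaks with H2AK119ub alone stood nearer to RNF2, at a median of 15.7 kb, with 7 of 19 within 10 kb.

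The stronger knockdown peaks mostly had both features and the weaker ones mostly had neither. Strength was taken as the −log10 of the p-value that the authors' caller gave each peak. Ranked by it, the strongest 57 peaks included 43 with both features (75.4%, 62.2 to 85.9) and 9 with neither (15.8%). The next 56 included 36 with both (64.3%) and 11 with neither (19.6%). In the set after that, also of 56 peaks, 16 had both (28.6%) and 35 neither (62.5%), and in the weakest 57 the counts were 13 (22.8%) and 38 (66.7%). The share at ends of coding genes ran the same way, at 64.9%, 51.8%, 21.4% and 21.1% from the strongest set to the weakest.

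The peak with both features and the highest −log10 p, 202.7, was at the 5′ end of EEF1A1 (chr6:73520010-73521319). It was 13.9-fold enriched over the authors' background and, at 1310 bp, the widest of all 226 peaks. The peak with the highest fold, 19.9, covered the 5′ end of EGR1 (chr5:138464799-138465591, −log10 p 181.0). It lay in an RNF2 peak of 3630 bp and an island of 13000 bp. These 2 peaks stood apart from the rest, as the next highest fold among the other peaks was 8.16.

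The other peaks of the 8 strongest with both features were 6.80- to 8.02-fold enriched. At ZSWIM6 (chr5:61331942-61332530, 7.90-fold) the RNF2 peak beneath was 14472 bp wide and 20.4-fold enriched. The peak at chr17:79810027-79810476 (8.02-fold) lay inside an RNF2 domain of 66265 bp and an island of 105000 bp, 12949 bp from CBX8, whose product is a PRC1 subunit that binds methylated histone H3. JUND (chr19:18281547-18282016, 7.50-fold) had its knockdown summit 12 bp from the RNF2 summit, in an island of 80800 bp. MAP3K14 (chr17:45317054-45317748, 7.61-fold), coding for the NF-kappa-B inducing kinase, had its summit 27 bp from that of RNF2.

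A pair of strong peaks with both features lay away from coding genes. One, at chr14:75294083-75294689 (6.80-fold), lay in the noncoding gene LINC01220, 11852 bp from FOS, the immediate early partner of JUND in AP-1. The other, at chr19:15223377-15223848 (7.02-fold), lay 3070 bp from EPHX3, an epoxide hydrolase gene. Both had RNF2 summits close by, at 120 and 128 bp.

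The class with H2AK119ub alone was led by a peak inside CFAP144 (chr1:43147628-43148114), over an annotated internal start of the gene, which spans chr1:43142962-43156396. It was 7.96-fold enriched with −log10 p 50.7. The nearest RNF2 peak was 23258 bp away and the island only 3000 bp wide. LRRC74B (chr22:21045609-21045999) followed with 5.82-fold and −log10 p 21.8. The next by −log10 p, 17.7, had a fold of only 2.45 and lay among the ribosomal RNA genes of chromosome 21 (chr21:8219702-8220213), where the nearest coding gene was 390069 bp away.

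Of the others among the 8 strongest with H2AK119ub alone, 4 were 3.98- to 4.95-fold enriched. They lay in the pseudogene MAP2K1P1, at the deubiquitinase-family gene USP54, at SWSAP1, a DNA repair gene, and 3803 bp from FBXL16. The last stood in an island of 132200 bp with an RNF2 peak 1222 bp away. The widest peak of the class, 751 bp and 3.52-fold, was at the promoter of APBB1 (chr11:6404997-6405747).

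All 6 peaks with RNF2 alone fell in a narrow range of 3.66- to 4.32-fold. They were at SDCBP2 (chr20:1325068-1325482, 4.28-fold), ZBBX (chr3:167380147-167380542, 4.32-fold), the 5′ end of DNAI7, beside ETFRF1 (chr12:25195051-25195372, 3.84-fold), ZSWIM2 (chr2:186848963-186849430, 3.66-fold), FAM204A (chr10:118342133-118342572, 4.04-fold) and the noncoding gene LOC440982 (chr3:147435585-147435935, 3.76-fold). Their RNF2 peaks were weak, with folds of 2.88 to 3.43, every one below the median of the whole RNF2 list, 3.74. Of the 108 peaks with both features, 70.4% had an RNF2 peak above that median.

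Among peaks with neither feature, high −log10 p often went with short, low-fold intervals far from genes. The first 2 lay at chr16:34588105-34588356 (252 bp, 2.28-fold, −log10 p 103.9) and chr17:26881271-26881542 (272 bp, 2.57-fold, −log10 p 74.8). The coding genes nearest to them were 198283 and 412571 bp away. Another such interval, at chr17:25920093-25920343, had the lowest fold of all, 1.76. Of the 5 knockdown peaks under 3-fold, 4 had neither feature and 1 H2AK119ub alone. Chromosome 1 held peaks at chr1:143246912-143247199 (3.41-fold) and chr1:143263424-143263719 (5.10-fold), both over 600 kb from a coding gene, and chromosome Y one at chrY:56752042-56752446 (4.57-fold).

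The genic exceptions among strong peaks with neither feature were CFAP54 (chr12:96489226-96489810, 8.16-fold), a gene of the ciliary central apparatus, and H2AL3 (chrX:37993776-37994159, 6.41-fold). CFAP54 lay 88360 bp from the nearest RNF2 peak and 86825 bp from the nearest island. The widest peak of the class, 1271 bp, was at chr6:128816461-128817731, outside genes, with LAMA2 the nearest coding gene.

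A large part of the class with neither feature consisted of weak peaks with identical caller values. A fold of 3.90 with −log10 p 9.53 was shared by 16 peaks, 14 of them with neither feature. A fold of 4.03 with −log10 p 10.2 was shared by 11 peaks, all with neither, and 4.15 with 10.9 by 6, of which 5 had neither. The read numbers behind these values are not in the list. The lowest −log10 of the q-value in the list was 4.01, and the median was 8.43 for peaks with both features, 5.74 with H2AK119ub alone, 7.69 with RNF2 alone and 5.07 with neither. Above 10 stood 46 of 108 peaks with both (42.6%) and 10 of 93 with neither (10.8%).

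Peaks with both features lay mostly at the ends of coding genes and peaks with neither mostly did not. Within 2 kb of either end of a coding gene lay 75 of 108 peaks with both features (69.4%, 59.8 to 77.9), 6 of 19 with H2AK119ub alone (31.6%, 12.6 to 56.6), 3 of 6 with RNF2 alone and 6 of 93 with neither (6.45%, 2.40 to 13.5). Of all 226 peaks, 90 lay there (39.8%, 33.4 to 46.5). These intervals count single peaks of a merged list, which are not replicates, and are no test between classes. A peak with any 5′ end within 2 kb was counted at a 5′ end, also where a 3′ end was near. By this rule, of the 75, 56 were at a 5′ end and 7 at a 3′ end, and 12 could not be assigned a side. Counted by end over all classes, where the strand was known, 71 5′ ends and 23 3′ ends had a knockdown peak. Of the 6 with neither, 2 were at a 5′ end (SPAG16 and H2AL3), 3 at a 3′ end (ZNF264, KIAA1586 and SHPRH) and 1 was not assigned (CFAP54).

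**Figure D1:**
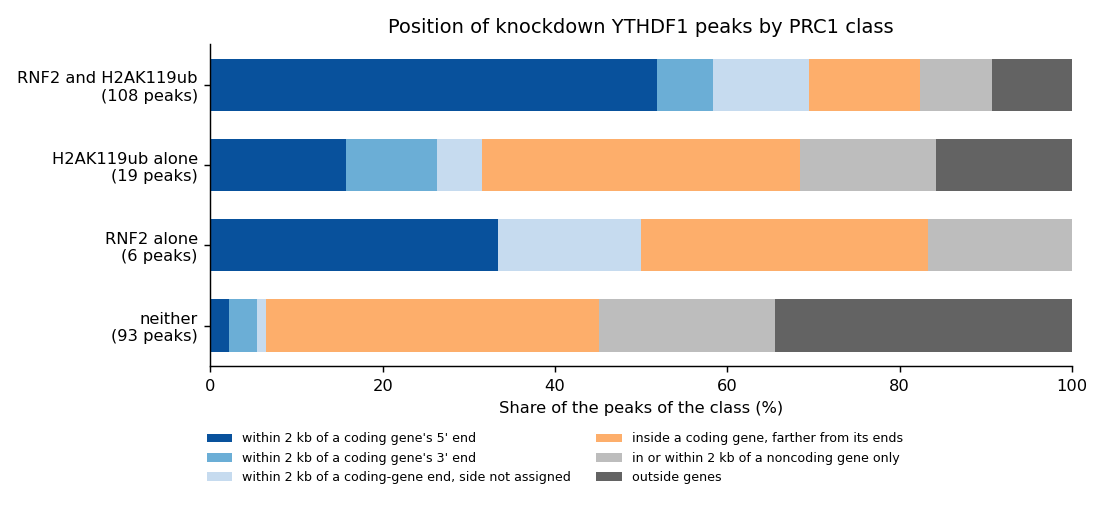
Share of the peaks of each PRC1 class (horizontal axis, %) by position relative to genes, with 1 bar per class. Dark blue, 5′ ends of coding genes, fills 51.9% of the bar for both features and 2.15% of the bar for neither, whose main parts are coding-gene interiors (38.7%) and stretches outside genes (34.4%).

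Read from the gene side, an end with a knockdown peak usually had both features. Of 20037 coding genes, 106 had a knockdown peak within 2 kb of an end, 0.529% of all. Of the 111 coding-gene ends with a knockdown peak, 84.7% lay within 2 kb of both RNF2 and H2AK119ub, against 38.9% of all 40074 ends. For 5′ ends the shares were 90.1% of the 71 with a knockdown peak and 62.5% of all 15843. For 3′ ends they were 69.6% of the 23 with a knockdown peak and 15.9% of all. Position and class therefore moved together, and within the 90 peaks at coding-gene ends 83.3% (74.0 to 90.4) had both features and 6.67% neither. Among the 136 peaks away from ends, 24.3% (17.3 to 32.4) had both and 64.0% (55.3 to 72.0) neither.

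The genes that held peaks in their interior were long, most of all for peaks with neither feature. The 36 peaks with neither feature inside coding genes, away from their ends, lay in genes of 253 kb at the median (40.5 to 2058 kb), 32 of them over 100 kb. The 14 such peaks with both features lay in genes of 48.8 kb (10.4 to 121 kb), and the 7 with H2AK119ub alone in genes of 112 kb. The median of all coding genes was 24.1 kb, but a longer gene has more interior for a peak to fall in, and its part in these lengths was not tested. The long hosts of peaks with neither feature included, as names picked after the values were seen, the neuronal receptor genes LRP1B, ROBO1 and GRIK2 and the transcription factor gene SOX5.

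Widths differed less between classes than position did. The median width was 468 bp for peaks with both features (437 to 513, 95% order-statistic interval), 456 bp with H2AK119ub alone (380 to 512), 405.5 bp with RNF2 alone (322 to 468) and 431 bp with neither (406 to 467). These intervals overlapped. Over 600 bp wide were 30 of the 108 peaks with both features, against 17 of the 93 with neither, 2 of the 19 with H2AK119ub alone and none of the 6 with RNF2 alone.

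The median fold was 4.09 for both features (3.96 to 4.38), 3.89 for H2AK119ub alone (3.76 to 4.40), 3.94 for RNF2 alone (3.66 to 4.32) and 3.90 for neither (3.90 to 4.03). Over 5-fold stood 22 of the 108 peaks with both features, 2 of the 19 with H2AK119ub alone, none with RNF2 alone and 6 of the 93 with neither.

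**Figure D2:**
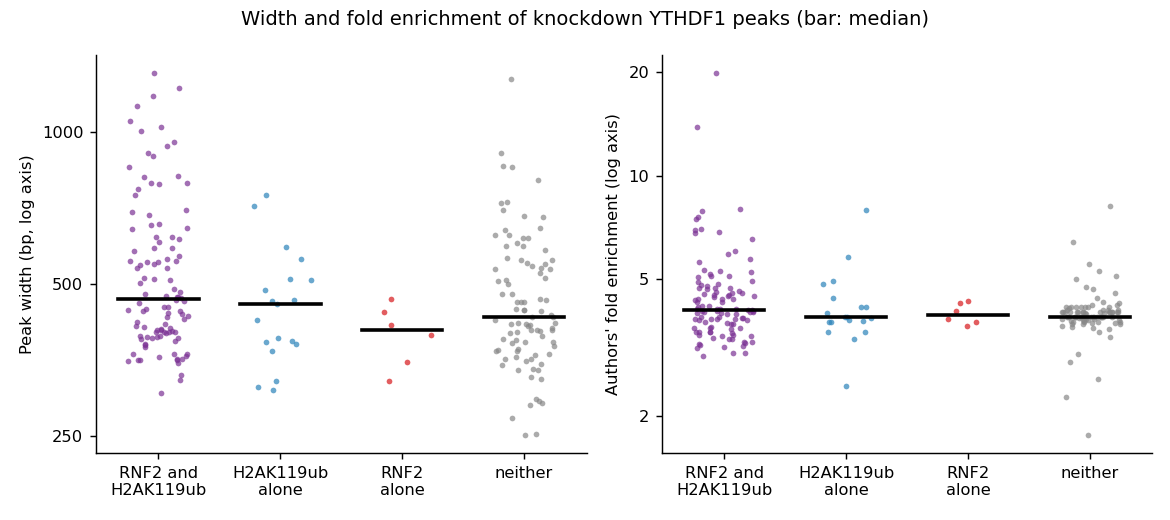
Width in bp (left) and the authors' fold enrichment (right), both on log axes, with 1 point per knockdown peak and a bar at the median of each PRC1 class. The medians of width lie between 405.5 and 468 bp and those of fold between 3.89 and 4.09, while the widest peak (1310 bp) and the highest fold (19.9) belong to the class with both features.

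Chromosome 19 held more of the peaks with both features than any other chromosome. It carried 28 of the 108 (25.9%, 18.0 to 35.2) and 2 of the 93 with neither (2.15%, 0.262 to 7.55). The same chromosome had 6.34% of all RNF2 peaks, 5.36% of all islands, 7.24% of coding genes and 1.90% of the chromosomes' extent. The 28 peaks ran from 1.94 to 58.4 Mb, and 20 of them were at ends of coding genes, among them JUND, KLF2, RFX1, DMWD and ZNF497. Their median fold was 4.28, against 4.05 for the 80 peaks with both features on other chromosomes. Chromosome 14 came next, with 10 peaks, 9.26% of the class.

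The number of chromosomes a class reached goes with its number of peaks, so the following counts are given as a description. Peaks with both features lay on 20 chromosomes, with none on 15, 18, X or Y. Peaks with neither lay on 23, with none on chromosome 5 and 9 each on chromosomes 3, 4 and 6. H2AK119ub alone was spread over 12 chromosomes and RNF2 alone over 5. Within 1 Mb of another peak of their own class lay 28 of the 108 peaks with both features and 11 of the 93 with neither, and none of the other 2 classes.

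**Figure D3:**
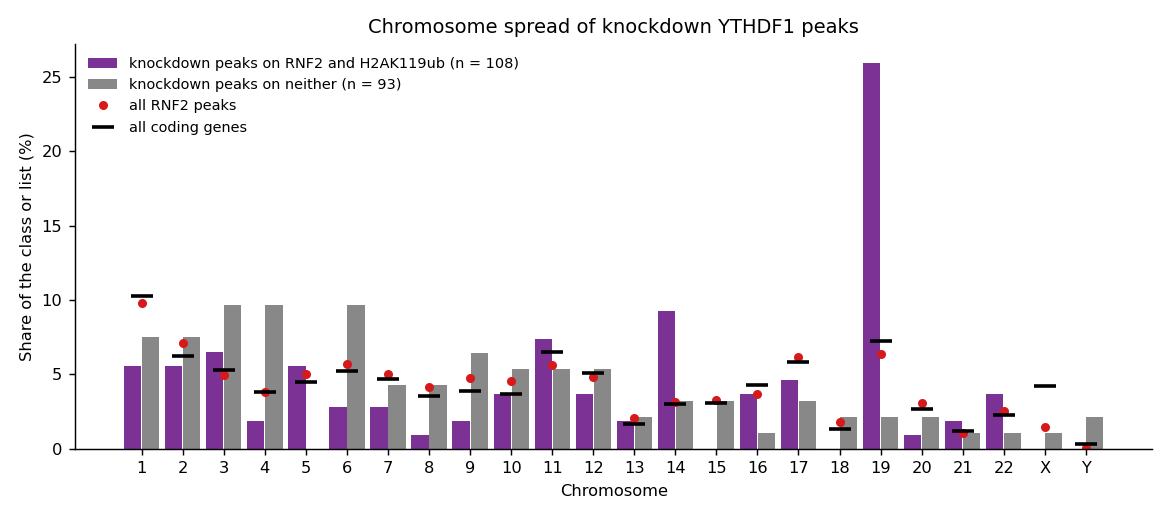
Share of knockdown peaks with both features and with neither (bars) on each chromosome, with the shares of all RNF2 peaks (points) and of all coding genes (dashes), in % of each class or list. Chromosome 19 holds 25.9% of the peaks with both features, against 6.34% of all RNF2 peaks, while the bars for neither reach at most 9.68%.

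The PRC1 features under knockdown peaks were broader and stronger than those lists as a whole. Knockdown peaks touched 115 RNF2 peaks, 0.392% of that list. These had a median width of 1762 bp (1447 to 1998), against 1347 bp for the whole list, and a median fold of 4.49 (4.06 to 5.13), against 3.74. The 125 islands under knockdown peaks had a median width of 11200 bp (8400 to 13800), against 4600 bp. Without the knockdown peaks of chromosome 19, 97 islands remained and the median was 8400 bp (6600 to 11200). At least 10 kb wide were 68 of the 125 (54.4%), against 16.5% of all islands. The islands' deposited score, of unstated scale, had reached its cap of 1000 in 51 of the 125 (40.8%), against 8.06% of all. A broad interval has more room to be touched, and its part in these differences was not tested.

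**Figure D4:**
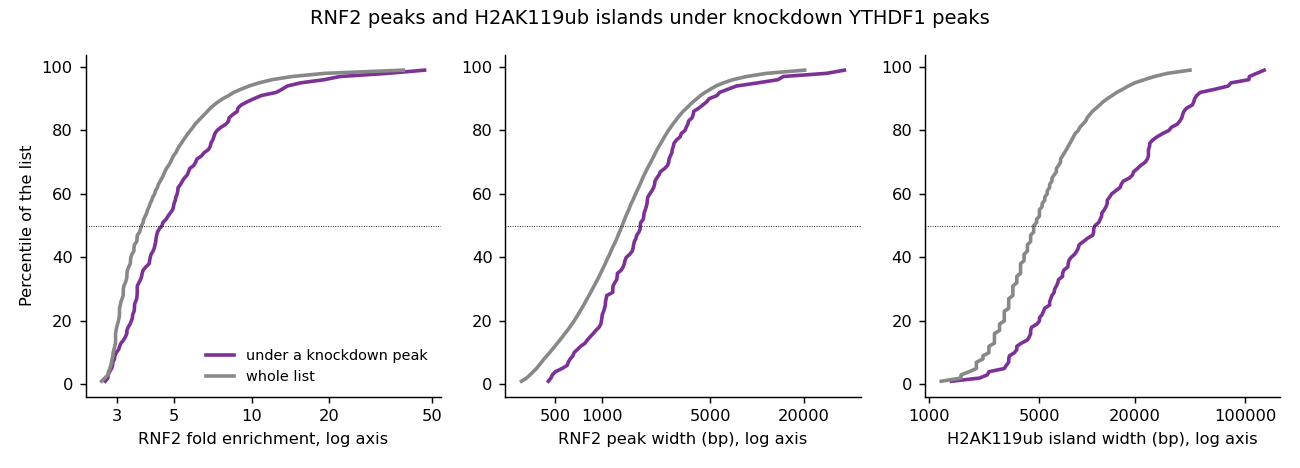
Percentile of the list (vertical axis, %) against RNF2 fold enrichment, RNF2 peak width and H2AK119ub island width (log axes, widths in bp), for features under a knockdown peak and for the whole list. The curves for features under a knockdown peak run to the right, with medians (dotted line) of 4.49, 1762 bp and 11200 bp, against 3.74, 1347 bp and 4600 bp for the whole lists.

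Distances between knockdown and RNF2 summits are bounded by the RNF2 peak beneath, since the classes were defined by overlap with it, and are given as a description. The median distance was 192.5 bp over the 108 peaks with both features, of which 37 were within 100 bp and 80 within 500 bp. For the 6 with RNF2 alone it was 147.5 bp, and all 6 were within 500 bp. These 6 RNF2 peaks were narrow, with a median of 498.5 bp, against 1857 bp under the peaks with both features. The EGR1 summit was farther out, 981 bp from that of RNF2, as were those of ZSWIM6 (2101 bp) and KLF2 (1370 bp).

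Of 9 gene groups examined, 7 had no knockdown peak at a gene end. No knockdown peak lay within 2 kb of an end of any of 39 HOX genes, 40 developmental transcription factor genes, 31 developmental signalling genes, 26 pluripotency-associated genes or 55 cytosolic ribosomal protein genes. None lay at 12 PRC2 subunit genes or at 21 genes for m6A writers, erasers and readers, YTHDF1 included. At a background of 0.529% of coding genes, fewer than 1 gene would be counted in each of these lists, so a count of 0 is near the background. RNF2 itself had no knockdown peak. Among 35 PRC1 subunit genes, PHC2, a Polyhomeotic homologue, had one at its 5′ end (chr1:33430783-33431482, 4.53-fold), on an RNF2 peak of 3202 bp and an island of 11000 bp.

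Among the 9 groups, the immediate early genes had the most members with a knockdown peak at an end. The groups were chosen with earlier results of these data known, so this count supports nothing beyond itself. Of 29 such genes, 4 had a peak within 2 kb of an end (13.8%, 3.89 to 31.7), against 0.529% of all coding genes. They were EGR1, JUND, KLF2 and KLF4, and in all 4 the peak was at the 5′ end and had both features. EGR1 and JUND had 19.9- and 7.50-fold peaks. KLF4 (chr9:107489691-107490236, 3.52-fold) and KLF2 (chr19:16324362-16324756, 3.43-fold), Krüppel-like transcription factor genes, had weaker ones, on RNF2 peaks of 7060 and 5686 bp with RNF2 folds of 14.4 and 8.82. JUND and KLF2 lie on chromosome 19, and 2 of the 29 genes remained with a peak without it. FOS, another well-known member, had none within 2 kb, and its neighbour LINC01220 did.

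Genes linked to cilia were looked at after the genes at the peaks had been seen, so the counts on them support nothing beyond themselves. Of 140 genes whose symbols begin with one of 14 ciliary prefixes (CFAP, DNAI, RSPH, IFT and the like), 4 had a peak within 2 kb of an end (2.86%): CFAP54, DNAI7, DYNC2H1 and RSPH1. With peaks on a promoter window counted too, 7 of the 140 did, adding CFAP144, CFAP58 and RSPH14, against 117 of all 20037 coding genes. Besides these 7, 8 genes linked to cilia or their regulation were picked after the values were seen. They were SPAG16, MLF1, CCDC13, TTC23L and TRAF3IP1, with the ciliary transcription factor genes RFX1, RFX3 and FOXJ1.

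These 15 genes, 8 of them picked from the peaks themselves, had 15 peaks, from 3.21-fold at RFX3 to 8.16-fold at CFAP54. Both features were present at 11 of them, H2AK119ub alone at CFAP144, RNF2 alone at DNAI7, and neither at CFAP54 and SPAG16. Of all 226 knockdown peaks 47.8% had both features, and of the 90 at coding-gene ends 83.3%. Of the 11 with both, CCDC13 (5.93-fold), RSPH1 (5.27-fold) and FOXJ1 (4.95-fold) had the highest folds, and DYNC2H1 (3.88-fold) and RFX3 the lowest. On a RefSeq promoter window lay 12 of the 15 peaks, and 10 of these 12 held GTTGCC. They are among the 71 peaks on a window, of which 44 held it (62.0%), so these counts are no comparison of separate sets.

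The arm GTTGCC was common in the promoter windows under knockdown peaks, 84 of 98 of which belonged to peaks with both features. It was searched on both strands, with other patterns, after the genes at the peaks had been seen. Of 98 promoter windows touched by a knockdown peak, 55 held it (56.1%, 45.7 to 66.1), against 12.2% of all 35116 windows. Counted by peak, 44 of 71 had a touched window with a match. Windows near each other share sequence, so they are not independent. Windows on RNF2 and H2AK119ub without a knockdown peak held it in 12.3% of 15915. The median GC content was 68.5% under knockdown peaks, against 67.7% in those windows and 58.7% in all windows.

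Split by class, GTTGCC was present in 47 of 84 windows with both features (56.0%, 44.7 to 66.8). The other classes had few windows, with matches in 3 of 6 with H2AK119ub alone (interval 11.8 to 88.2%), 2 of 4 with RNF2 alone (6.76 to 93.2%) and 3 of 4 with neither (19.4 to 99.4%). The intervals for H2AK119ub alone and for RNF2 alone include the 12.2% of all windows. In the class with neither, the matching windows of SPAG16 and SPAG16-DT overlap under the same peak. Its interval therefore counts shared sequence as independent and cannot set it apart from the background. Counted by peak, that class had a match at 2 of 3. On chromosome 19 the counts for both features were 10 of 20, against 11.9% of the chromosome's windows with RNF2 and H2AK119ub and no knockdown peak. Promoter windows were touched unevenly, by 60 of 107 peaks with both features (56.1%), 4 of 17 with H2AK119ub alone, 4 of 6 with RNF2 alone and 3 of 89 with neither, of the peaks on chromosomes with such windows. Sequence under the other peaks was not read.

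The full X-box, GTTNCCNNGGNAAC, which can contain the arm, was found in 11 of the 98 windows (11.2%, 5.74 to 19.2), against 0.49% of all windows and 0.465% of those with RNF2 and H2AK119ub and no knockdown peak. These windows belonged to 8 peaks. Both features were present at the peaks of C2orf81 and WDR54, TTC23L, GPR135, CINP, SYT5 and NRSN2, H2AK119ub alone at APBB1, and neither at SPAG16. In the C2orf81 window above the arms face each other across 2 bases.

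The other patterns were set against the same 2 backgrounds. The GC box GGGGCGGGG was in 35 of the 98 windows (35.7%), against 15.7% of all windows and 28.0% of those with RNF2 and H2AK119ub without a knockdown peak. The NRF1 pattern GCGCNTGCGC was in 14.3%, against 5.78% and 10.1%, and the ETS pattern CCGGAAG in 16.3%, against 10.3% and 14.5%. The CAAT box CCAAT was in 23.5%, against 34.6% and 31.8%. The CArG box was in 3 windows, at EGR1, LINC01220 and FZR1 (3.06%), against 1.29% and 0.980%. The cyclic AMP element TGACGTCA, the AP-1 pattern TGANTCA, the E-box CACGTG and the TATA box TATAAA were each in 7 windows or fewer under knockdown peaks. TGACGTCA was in 4.08%, against 1.85% of all windows and 2.65% of those with RNF2 and H2AK119ub without a knockdown peak. TGANTCA was in 1.02% (0.0258 to 5.55), against 7.71% and 3.76%. CACGTG was in 7.14%, against 7.26% and 9.94%, and TATAAA in 4.08%, against 11.5% and 4.60%. A match says only that these letters are in the window.

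The summit of 52 knockdown peaks fell inside a promoter window, and 39 of these peaks had GTTGCC in that window. In those 39 the summit was usually close to a match. The median distance from summit to match was 23 bp, and 31 of the 39 (79.5%) were within 50 bp, a span that covers 32.0% of the bases of those windows. The GC box was 55.5 bp from the summit at the median (9 of 21 peaks within 50 bp), the CAAT box 82.5 bp (5 of 16), the NRF1 pattern 80 bp (3 of 9) and the ETS pattern 34.5 bp (6 of 9). The full X-box was 33.5 bp away (5 of 8), the cyclic AMP element 46 bp (3 of 4) and the E-box 43 bp (2 of 3). The remaining patterns had a match at 1 or 2 peaks each. At SYT5 the summit was 2 bp from a GTTGCC match, at CFAP144 3 bp, at RSPH14 3 bp and at LRRC74B 4 bp. At H2AL3, where the summit lay outside the window, it was 97 bp away.

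**Figure D5:**
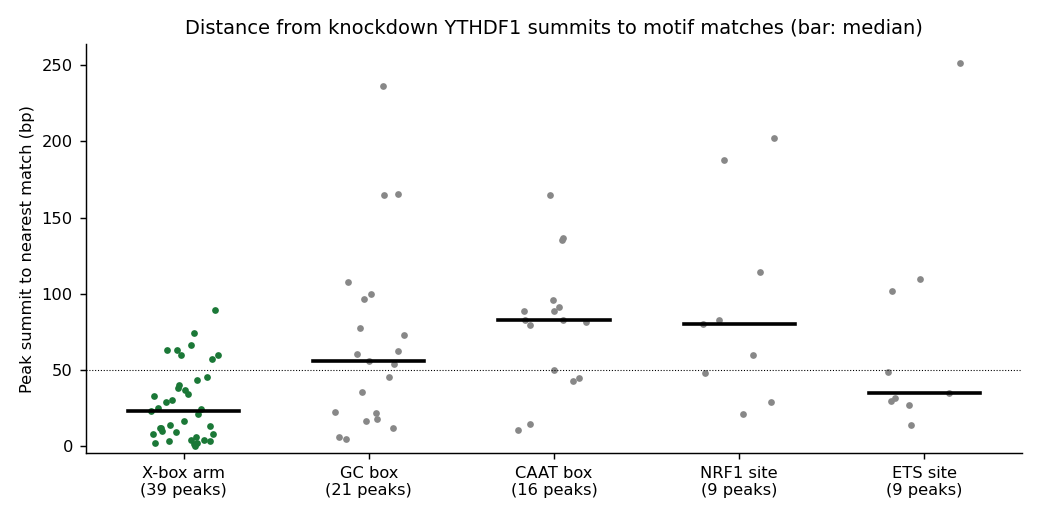
Distance in bp from the summit of each knockdown peak to the nearest match (vertical axis) for the X-box arm GTTGCC and 4 other patterns, with 1 point per peak and a bar at the median. For the X-box arm 31 of 39 points lie under the dotted line at 50 bp and the median is 23 bp. The other medians are 34.5 bp for the ETS pattern, 55.5 bp for the GC box, 80 bp for the NRF1 pattern and 82.5 bp for the CAAT box.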

How the data were processed

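The authors' deposited ChIP-seq lists were used: YTHDF1 in YTHDF1-knockdown H1 cells, and RNF2 and H2AK119ub in untreated H1 cells, on hg38. The series has 12 libraries in 6 groups, and the authors merged the replicates of each group. The submitters' processing notes name, with no role or order, MACS2 2.1.0, SICER 1.1, Bowtie2 2.2.5, Trimmomatic 0.35, Picard and SAMtools 1.3.1. Which tool called which list is not given in the sources used here, nor are its settings. The deposited score of a knockdown peak was 10 times its −log10 p, and that of an island had no stated scale. The deposited fold is the caller's ratio of enrichment to background, and the deposited −log10 p-value and −log10 q-value are the authors' own. These values, which are the authors', describe, rank or filter peaks within a list only. Depth is unknown.

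Coordinates are 1-based. Gene positions came from a RefSeq table of GRCh38.p14 with 20037 coding genes on 24 chromosomes. Strand was known for 15843 of them (79.1%), through the RefSeq promoter windows, which include none for chromosome 8. Classes need a 1 bp overlap, and a gene end is within 2 kb of either end of a coding gene. Intervals are exact (Clopper-Pearson) for shares and from order statistics for medians, both at 95%. Scripts used Python 3.11.15, pandas 2.3.3, numpy 2.4.6 and SciPy 1.17.1 and were tested on simulated data. No test between classes was run.

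The peaks, the 9 gene groups and the naming rule were chosen with earlier results of these data known. This rule took the genes at the 8 peaks of each class with the highest −log10 p, at every peak of a class of at most 12 and at the widest peak of each class. It also took members of the gene groups with a knockdown peak at an end, and YTHDF1 and RNF2. A gene that this rule took is not reported here. The cilia genes, the sequence patterns and the genes named in the chromosome 19, gene-length and sequence paragraphs beyond this rule were chosen after their values had been seen. Of 13 listed PRC2 genes 12 matched by symbol, and in the other 8 groups all matched.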

Additional observations from a re-analysis of the deposited data

How the results depend on the processing

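Of 130 values recomputed under alternative settings, 115 stayed within the interval of the reported value and 15 did not. With the better 50% of RNF2 peaks and islands, both features were touched by 33.6% of knockdown peaks, H2AK119ub alone by 15.5%, RNF2 alone by 0.885% and neither by 50%. Fewer intervals can only lower the share with both features and raise the share with neither. In the 114 knockdown peaks of the higher 50% by −log10 p, both features were touched by 70.2% and neither by 17.5%. There the median fold was 4.46 for both and 4.36 for neither, the median width of peaks with neither was 394.5 bp, 15% of them were at gene ends and 0 of 20 were on chromosome 19. Peaks with both features lay at gene ends in 78.7% with windows of 5 kb, 59.3% with windows of 500 bp and 79.6% with ends of all genes counted, and peaks with neither in 16.1% with ends of all genes. Merging peaks within 1 kb left the same 226 peaks, so the values under it could not differ, and they are counted among the 115. Autosomes alone kept 223 peaks, so the values under that setting could move little. Chosen after seeing the data were a 3-fold minimum, which left out 5 peaks, counting GTTGCC per peak (62.0%) or in the stronger 50% of peaks (60.9% of windows), and leaving out chromosome 19 (57.7% of windows). No paired analysis was possible because the replicates had been merged into 1 list per group, and for the same reason no replicate could be left out. Depth per library is unknown, so how many weaker sites went uncalled could not be measured. Counts in the classes with 19 and 6 peaks have wide intervals, so a value that stayed within them says little.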
